A study of Homo sapiens with 23 samples.

Results

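The 10 genes described here are regulators of the epithelial-mesenchymal transition (EMT), the change in which epithelial cells lose their junctions and take on the traits of migrating cells. They were chosen by name, with earlier results of these data known. The transcription factors were *ZEB1*, *ZEB2*, *SNAI1*, *SNAI2*, *TWIST1* and *PRRX1*, and the splicing regulators were *QKI*, *ESRP1*, *ESRP2* and *RBFOX2*. All 10 were among the 57875 genes listed, and 9 of them were among the 22842 genes that passed the filter on low counts. *PRRX1* did not pass. RNA had been sequenced from HCT116 cells, which derive from a human colorectal carcinoma, without any edit (wild type) and from 4 knockout lines, *AGO1*, *AGO2*, *AGO1/2* and lastly *AGO1/2/3*, made from HCT116 by CRISPR editing (the last 2 are also named the double and triple knockout lines), with 3 biological replicates of each of the 5 lines. *AGO4* was targeted in none of them. Argonaute (AGO) proteins hold miRNAs and carry them to their target mRNAs, and the question put to these lines was how steady state mRNA levels change as AGO proteins are removed. Each genotype is 1 cell line, so genotype and line cannot be told apart. A gene's total RNA was measured, and neither spliced isoforms nor mature miRNAs were.

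ZEB and SNAI proteins bind the E-box of the promoters of epithelial genes such as *CDH1*, which encodes E-cadherin, and hold them down. The mature miR-200 miRNAs bind the 3′-UTRs of *ZEB1* and *ZEB2*, and the ZEB proteins in turn repress the genes of the miR-200 miRNAs, so the pair form a double negative loop. ESRP1 and ESRP2 keep epithelial exons in many mRNAs, while QKI and RBFOX2 favour the mesenchymal forms of many of the same or other mRNAs.

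The miR-200 family falls into 2 groups by its seed, bases 2 to 8 of the mature miRNA. The sequences below are from RefSeq on GRCh38.p14 with the seed in capitals, and are shown because the seed is what was searched for in the members' 3′-UTRs. The first 3 share the seed AAUACUG and the last 2 share AACACUG, a difference of 1 base. The miR-200b, miR-200a and miR-429 genes lie together on chromosome 1, and the miR-200c and miR-141 genes on chromosome 12.
miR-200b-3p: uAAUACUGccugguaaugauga
miR-200c-3p: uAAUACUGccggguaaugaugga
miR-429: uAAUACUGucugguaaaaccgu
miR-200a-3p: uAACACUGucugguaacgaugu
miR-141-3p: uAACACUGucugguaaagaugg

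Matches to these seeds, CAGTATT and CAGTGTT on the mRNA strand, were counted in the 3′-UTR of the canonical transcript of each gene (GENCODE v44, GRCh38). *ZEB1* held 6 matches to CAGTATT and 3 to CAGTGTT in a 3′-UTR of 2540 bases, and *ZEB2* held 5 and 4 in 5370 bases. Of 14757 tested genes with a 3′-UTR, 8 (0.0542%) held 9 or more matches, these genes included. *QKI* held 3 and 2 matches in 7882 bases, a number reached by 0.712% of the genes, and *RBFOX2* held 2 matches to CAGTATT in 5469 bases. *ESRP1* held 1 match to each seed and *SNAI2* 1 match to CAGTATT. The 3′-UTRs of *SNAI1*, *TWIST1*, *PRRX1* and *ESRP2* held neither sequence. The sites below are from the GENCODE v44 transcripts, with the match in capitals, and show the first 2 matches in *ZEB1*, *ZEB2* and *QKI* that an A follows, and the first match in *RBFOX2*. A match describes sequence and not binding.
ZEB1, chr10:31527619-31527640, plus strand: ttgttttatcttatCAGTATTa
ZEB1, chr10:31528493-31528514, plus strand: tgatttttacctatCAGTATTa
ZEB2, chr2:144389236-144389257, minus strand: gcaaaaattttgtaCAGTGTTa
ZEB2, chr2:144388989-144389010, minus strand: gcactacaatgcatCAGTATTa
QKI, chr6:163573220-163573241, plus strand: aatgccttggttctCAGTATTa
QKI, chr6:163573288-163573309, plus strand: gactttttttctgaCAGTATTa
RBFOX2, chr22:35739559-35739580, minus strand: tatttttctgttcaCAGTATTt

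Total counts per sample lay between 27709971 and 45271146, with the *AGO2* knockout samples among the deepest. Levels are CPM, counts scaled to a common library size by the TMM method, and each is followed where it is a mean by the standard deviation (SD) over 3 samples. A gene was called higher or lower where edgeR's quasi-likelihood test gave a p, adjusted over all genes tested by the method of Benjamini and Hochberg, at or under 0.05. *AGO1* RNA fell in the 3 lines in which it was targeted, from 131 ± 20.4 CPM in wild-type cells to means of 32.4 to 36.6 CPM, and *AGO3* fell in *AGO1/2/3* knockout cells. *AGO2* RNA fell in *AGO2* knockout cells with a log2 change of -0.51. In *AGO1/2* knockout cells its change of -0.26 was not called (adjusted p = 0.0924, edgeR). It was higher in *AGO1/2/3* knockout cells with a log2 change of 0.40. *AGO2* RNA was thus called lower in 1 of the 3 lines in which it was targeted. RNA of the untargeted *AGO4* rose from 25.1 ± 3.34 CPM in wild-type to 61.4 ± 7.06 CPM in *AGO1/2/3* knockout cells (log2 change 1.29, adjusted p = 0.000346, edgeR). It was lower in *AGO2* knockout cells (-0.70, adjusted p = 0.0457, edgeR) and not called in the *AGO1* and *AGO1/2* knockout lines. The paper checked the knockouts by DNA sequencing and found the targeted proteins absent by western blot. The summed level of 8 colorectal epithelial markers ranged from 1304 to 2618 CPM, with *CDX1* at 0 in every sample. The summed level of 9 fibroblast and immune markers was 3.73 to 7.15 CPM in wild-type samples and 10.3 to 16.3 CPM in samples of the double and triple knockout lines, with *LUM*, *THY1* and *CD3E* at 3 counts or fewer in every sample. *LYZ*, which encodes lysozyme, rose from 0.125 ± 0.0564 CPM in wild-type cells to 7.51 ± 0.744 CPM in *AGO1/2/3* knockout cells (SD, n = 3). The class did not rise as a whole there. Of these 9 markers 5 were tested, and 1 was higher, 1 lower and 3 not called, with a median log2 change of -0.04. Of all genes tested, 20.3% were higher and 19.8% lower. The part of these markers in the results was not tested.

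**Figure D1:**
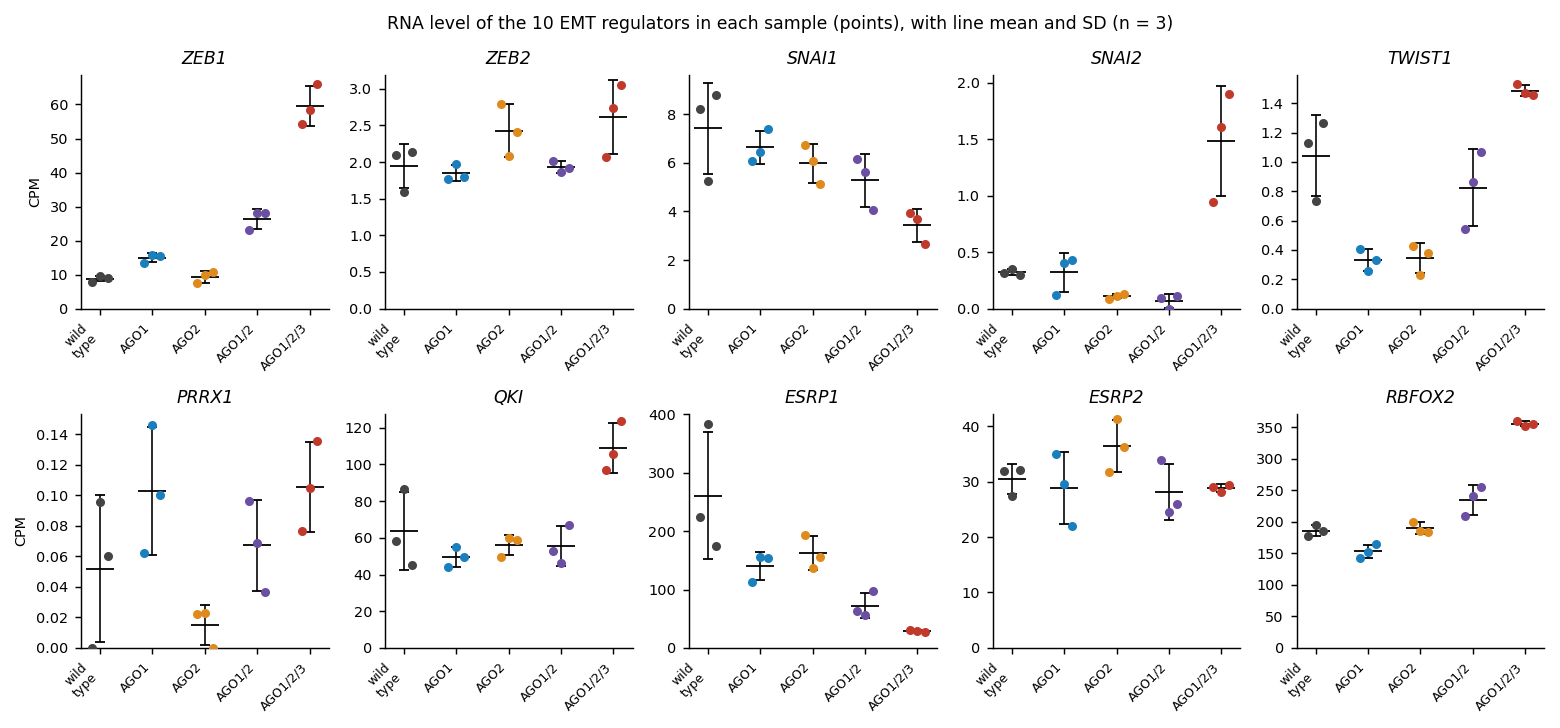
RNA level (CPM, linear axis from 0) of the 10 genes in each of the 15 samples, with points for samples and black bars for the mean and SD of a line (n = 3). *ZEB1*, *QKI* and *RBFOX2* lie highest in the 3 *AGO1/2/3* knockout samples and *ESRP1* lies lowest there, while *ESRP2* overlaps with wild type in every knockout line and *PRRX1* stays at or under 0.146 CPM.

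Per kilobase of exon, the members' levels in wild-type cells spanned a wide range. *ESRP1* was highest at 53.4 ± 22.4 CPM per kb, followed by *RBFOX2* at 15.1 ± 0.682 CPM per kb (SD, n = 3). *ESRP2*, *SNAI1* and *QKI* had 5.87, 4.35 and 3.66 CPM per kb. *ZEB1* had 1.02 CPM per kb, *TWIST1* 0.522 CPM per kb, and *SNAI2* and *ZEB2* 0.0981 and 0.0744 CPM per kb. *ESRP1*, *RBFOX2* and *ESRP2* thus stood above all the EMT transcription factors in wild-type cells. With the longest transcript as the length in place of all exons, *QKI* had 6.77 CPM per kb and lay above *SNAI1*, and *ZEB2* had 0.203 CPM per kb and lay above *SNAI2*. *ESRP1* and *RBFOX2* remained the highest 2.

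In *AGO1/2/3* knockout cells, 4 of the 9 members tested were higher than in wild-type cells (*ZEB1*, *SNAI2*, *QKI* and *RBFOX2*) and 2 were lower (*SNAI1* and *ESRP1*). Among all genes tested 20.3% were higher and 19.8% lower in this comparison. Among the 14757 tested genes with a 3′-UTR the shares were 26.7% and 21.5%. In *AGO1/2* knockout cells *ZEB1* and *RBFOX2* were higher and *SNAI2* and *ESRP1* lower, against a background of 8.37% of genes up and 8.35% down. In *AGO1* knockout cells *ZEB1* was higher and *TWIST1* and *ESRP1* were lower, beside 3.17% and 5.50% of all genes. In *AGO2* knockout cells *TWIST1* alone was called, and was lower, where 8.55% of all genes were higher and 10.8% lower. The median log2 change of the 9 members was -0.16, -0.18, -0.20 and 0.51 in the *AGO1*, *AGO2*, double and triple knockout lines in that order, and that of all genes tested was between -0.02 and 0.01. These comparisons share the wild-type samples.

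**Figure D2:**
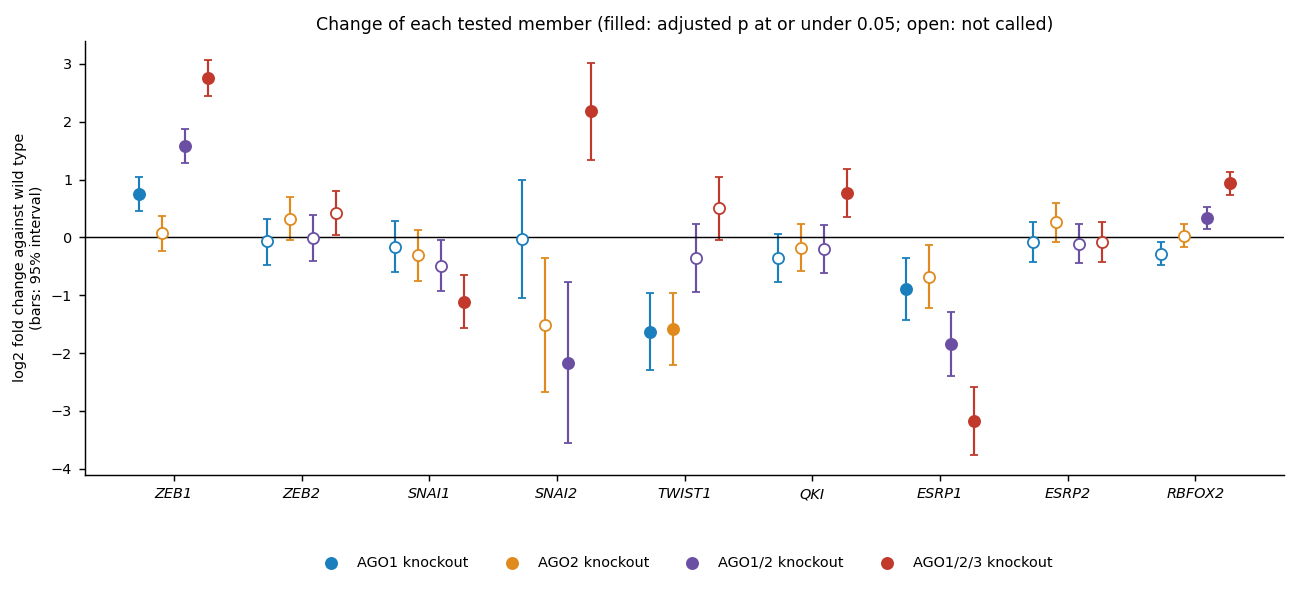
Log2 change of the 9 tested members in each knockout line against wild-type cells, with the 95% interval of the difference. Filled points were called (p of edgeR at or under 0.05 after adjustment) and open points were not, so that *ZEB1* and *ESRP1* are filled in 3 lines each and *ZEB2* and *ESRP2* in none.

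*ZEB1* (ENSG00000148516, chromosome 10, 31318495 to 31529814), the ZEB factor most tied to EMT in carcinoma cells, was at 7.89, 9.59 and 9.04 CPM in the wild-type samples. The *AGO1* knockout samples had 13.4, 15.9 and 15.5 CPM and the *AGO1/2* knockout samples 23.1, 28.1 and 28.3 CPM. The *AGO1/2/3* knockout samples had 54.4, 58.5 and 65.9 CPM. These 4 lines did not overlap with each other, and each stood above the one before. The *AGO2* knockout samples, at 7.43, 9.77 and 10.7 CPM, overlapped with the wild-type samples. The log2 change against wild-type cells was 0.75 in *AGO1* knockout cells (standard error, SE, 0.14, adjusted p = 0.00402), 1.58 in *AGO1/2* knockout cells (SE 0.14, adjusted p = 2.56e-06) and 2.75 in *AGO1/2/3* knockout cells (SE 0.15, adjusted p = 2.95e-09). The last is a 6.73-fold rise. In bulk RNA, more cells with *ZEB1* and more *ZEB1* RNA per cell cannot be told apart. In *AGO2* knockout cells the log2 change was 0.07 with a 95% interval of -0.23 to 0.37.

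The rise of *ZEB1* in *AGO1/2* knockout cells was larger than the sum of the changes in the *AGO1* and *AGO2* knockout lines. The interaction, which is the log2 change of *AGO1/2* less those of *AGO1* and *AGO2*, was 0.76 (SE 0.20, adjusted p = 0.0149 by edgeR). It was positive and called for 11.5% of all genes tested and negative and called for 8.26%. Between *AGO1/2/3* and *AGO1/2* knockout cells *ZEB1* rose by a further 1.17 on the log2 scale (adjusted p = 2.13e-05), and 11.9% of all genes rose and 10.0% fell between these lines. The counting of strands was not stated. The antisense RNA *ZEB1-AS1*, whose start lies 1952 bases from that of *ZEB1*, had 2.99 ± 0.485 CPM in wild-type and 2.27 ± 0.237 CPM in *AGO1/2/3* knockout cells (SD, n = 3) and was called in no line.

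*ZEB2* (ENSG00000169554, chromosome 2, 144364364 to 144521057), its paralog with the same number of seed matches, was at 2.10, 1.59 and 2.14 CPM in wild-type samples and at 2.07, 2.73 and 3.05 CPM in *AGO1/2/3* knockout samples. All 5 lines lay between 1.59 and 3.05 CPM and the *AGO1/2/3* knockout samples overlapped with the wild-type ones. *ZEB2* passed the threshold in none of the 4 comparisons with wild-type cells. Its log2 change in *AGO1/2/3* knockout cells was 0.42 with a 95% interval of 0.04 to 0.80 (adjusted p = 0.0750), and without replicate 1 of that line it was 0.55 and was called (adjusted p = 0.0319). The ratio of *ZEB1* to *ZEB2* CPM within a sample was 3.76 to 6.02 in wild-type, 7.54 to 8.59 in *AGO1*, 11.4 to 15.1 in *AGO1/2* and 21.4 to 26.3 in *AGO1/2/3* knockout samples, with no overlap between these lines. An exact two-sided permutation test gave p = 0.1 for each of these 3 lines against wild-type cells, the smallest p that 3 samples against 3 allow. The *AGO2* knockout samples, at 2.66 to 4.69, overlapped with wild-type samples (p = 0.6, exact permutation test).

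*SNAI1* (ENSG00000124216, chromosome 20, 49982980 to 49988886) encodes Snail, a direct repressor of *CDH1*, and fell in *AGO1/2/3* knockout cells, where *ZEB1* rose. The wild-type samples had 8.21, 5.26 and 8.77 CPM and the *AGO1/2/3* knockout samples 3.96, 3.68 and 2.64 CPM. All 3 knockout samples lay below the lowest wild-type sample, which was replicate 2. The log2 change was -1.11 (SE 0.21, adjusted p = 0.000673), a 2.16-fold fall. In *AGO1/2* knockout cells, with 6.15, 5.62 and 4.05 CPM, it was -0.49 and was not called (adjusted p = 0.130). Without wild-type replicate 2 this value was -0.70 and was called (adjusted p = 0.0206). The step from *AGO1/2* to *AGO1/2/3* knockout cells, -0.62 on the log2 scale, missed the threshold (adjusted p = 0.0526), although the samples of these lines did not overlap. It was called under 11 alternatives, among them DESeq2 (-0.62, adjusted p = 0.0345), total counts only, no filter, only the samples compared and 5 single libraries left out, at -0.80 to -0.62 with adjusted p of 0.0166 to 0.0496. *AGO1* knockout samples had 6.07 to 7.40 CPM and *AGO2* knockout samples 5.12 to 6.72 CPM, and the lines above *AGO1/2/3* in the order of its levels were not called different from their neighbours.

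*SNAI2* (ENSG00000019549, chromosome 8, 48917598 to 48921740), which encodes Slug, had few counts. They were 10, 11 and 10 in wild-type samples, 4, 11 and 13 in *AGO1* and 4, 5 and 5 in *AGO2* knockout samples. The *AGO1/2* knockout samples had 3, 0 and 3 counts and the *AGO1/2/3* knockout samples 37, 46 and 56. The *AGO1/2/3* samples stood above every other sample. The *AGO1/2* samples lay below all wild-type samples. In CPM, at 0 to 0.111, they overlapped with the *AGO2* knockout samples, at 0.0896 to 0.127. The log2 change of *AGO2* knockout cells was -1.51 and was not called (adjusted p = 0.0616), and was called under 5 alternatives at -1.63 to -1.48 (adjusted p of 0.0342 to 0.0474). In *AGO1/2/3* knockout cells the log2 change against wild-type cells was 2.18 (SE 0.39, adjusted p = 0.000400). For *AGO1/2* knockout cells it was -2.17 (adjusted p = 0.0325), and the ratio of the summed counts, 31 against 6 and scaled for library size, was 4.68 with an exact 95% interval of 1.92 to 13.7 that covers counting error only. This call was lost without any 1 of the wild-type replicates 1, 2 or 3 or of *AGO1/2* replicates 1 or 2, with log2 changes of -2.52 to -1.62 and adjusted p of 0.0511 to 0.113. Between *AGO1/2/3* and *AGO1/2* knockout cells the ratio of summed counts was 20.8 (exact 95% interval 9.32 to 57.7, counting error only, adjusted p of the fit 2.95e-05).

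*TWIST1* (ENSG00000122691, chromosome 7, 19020991 to 19117636), a basic helix-loop-helix factor that binds E-boxes as a dimer, was at 1.13, 0.733 and 1.27 CPM in wild-type samples. The *AGO1* knockout samples had 0.405, 0.256 and 0.333 CPM and the *AGO2* knockout samples 0.425, 0.231 and 0.380 CPM. Both single knockout lines lay below all wild-type samples. Its log2 changes were -1.63 (SE 0.32, adjusted p = 0.00463) and -1.59 (SE 0.29, adjusted p = 0.00340). The *AGO1/2* knockout samples had 0.544, 0.862 and 1.07 CPM and overlapped with wild-type samples, and the *AGO1/2/3* knockout samples had 1.53, 1.47 and 1.46 CPM. Neither line was called against wild-type cells, with 95% intervals of -0.94 to 0.24 and -0.04 to 1.05. The falls of the single knockout lines did not add up in the double knockout line, and the interaction was 2.87 (SE 0.44, adjusted p = 0.000456), the largest among the members. The rise from *AGO1/2* to *AGO1/2/3* knockout cells was 0.86 (adjusted p = 0.0311) and was not called without *AGO1/2* replicate 1 (0.62, adjusted p = 0.136). It was also not called with DESeq2 (0.86, adjusted p = 0.0514) or without *AGO1/2* replicate 2 or any of the 3 *AGO1/2/3* replicates, where the value stayed at 0.83 to 0.89 (adjusted p of 0.0690 to 0.0827).

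*PRRX1* (ENSG00000116132, chromosome 1, 170662728 to 170739421), a homeobox gene of mesenchymal cells, had 0 to 4 counts in every sample. No line was above the floor of 3 counts in all its samples, so no difference was detectable at this depth.

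Among the splicing regulators, *ESRP1* (ENSG00000104413, chromosome 8, 94641074 to 94707466) was the most abundant in wild-type cells and had the largest change. The wild-type samples had 224, 383 and 174 CPM, a spread set by replicate 2. The *AGO1/2* knockout samples had 63.7, 56.6 and 97.3 CPM and the *AGO1/2/3* knockout samples 30.8, 29.0 and 26.7 CPM. Neither line overlapped with the other or with wild-type cells. The log2 changes were -1.85 (SE 0.26, adjusted p = 0.000188) and -3.17 (SE 0.27, adjusted p = 3.46e-07), the latter a 9.03-fold fall. From *AGO1/2* to *AGO1/2/3* knockout cells *ESRP1* fell by 1.33 on the log2 scale (adjusted p = 0.00171). The *AGO1* knockout samples had 113, 155 and 154 CPM, below all wild-type samples, and a log2 change of -0.89 (adjusted p = 0.0404). Without wild-type replicate 2 the value was -0.50 and was not called (adjusted p = 0.169). The call was also lost without wild-type replicate 1, any of the 3 *AGO1* replicates, *AGO2* replicate 3 or any of the 3 *AGO1/2/3* replicates, where the value stayed at -0.98 to -0.75 (adjusted p of 0.0522 to 0.154). The *AGO2* knockout samples had 194, 137 and 156 CPM and overlapped with wild-type samples. *AGO2* knockout cells had a log2 change of -0.68 that was not called (adjusted p = 0.0693), and that was called without wild-type replicate 3 (-0.93, adjusted p = 0.0162), with total counts only (-0.81, adjusted p = 0.0356), with DESeq2 (-0.66, adjusted p = 0.0463) and with no filter (-0.64, adjusted p = 0.0183).

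*ESRP2* (ENSG00000103067, chromosome 16, 68229033 to 68238102), the paralog with the same role in epithelial cells, was at 31.8, 27.3 and 32.2 CPM in wild-type and at 29.1, 28.1 and 29.5 CPM in *AGO1/2/3* knockout samples. It was called in none of the 4 comparisons, and its order over the 5 lines held no neighbours that differed. The 95% interval of its log2 change in *AGO1/2/3* knockout cells was -0.42 to 0.26, that is, it left out the change seen for *ESRP1*. The ratio of *ESRP1* to *ESRP2* CPM was 5.42 to 14 in wild-type samples, 1.88 to 3.74 in *AGO1/2* and 0.906 to 1.06 in *AGO1/2/3* knockout samples. These 3 lines did not overlap, and the exact two-sided permutation p was 0.1 for both knockout lines, the smallest possible. The *AGO1* knockout samples, at 3.23 to 7.02, and the *AGO2* knockout samples, at 3.32 to 6.10, overlapped with both wild-type and *AGO1/2* knockout samples (exact permutation p = 0.2 against wild type for each). In *AGO1/2/3* knockout cells the 2 paralogs thus had nearly the same CPM.

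*QKI* (ENSG00000112531, chromosome 6, 163414000 to 163578592), a KH-domain protein that also promotes circular RNAs in EMT, was at 58.4, 86.9 and 45.4 CPM in wild-type samples and at 96.7, 106 and 124 CPM in *AGO1/2/3* knockout samples. All 3 knockout samples lay above the highest wild-type sample, again replicate 2. The log2 change was 0.77 (SE 0.20, adjusted p = 0.00529), and between the double and triple knockout lines it was 0.97 (adjusted p = 0.00233). The *AGO1*, *AGO2* and *AGO1/2* knockout samples together had 44.3 to 67.2 CPM and none of these lines was called. *QKI* thus did not share the graded order of *ZEB1*, and neighbours below *AGO1/2/3* in the order of its levels did not differ beyond their spread.

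*RBFOX2* (ENSG00000100320, chromosome 22, 35738736 to 36028824), which binds the UGCAUG element beside alternative exons, was at 178, 195 and 185 CPM in wild-type samples and at 360.4, 352 and 355 CPM in *AGO1/2/3* knockout samples, with no overlap. The log2 change was 0.94 (SE 0.09, adjusted p = 1.41e-06), a 1.91-fold rise. The *AGO1/2* knockout samples had 209, 241 and 255 CPM, above all wild-type samples, and a log2 change of 0.34 (adjusted p = 0.0202). That call was lost without wild-type replicates 1 or 3 or *AGO1/2* replicates 2 or 3, where the value was 0.27 to 0.32 (adjusted p of 0.0560 to 0.0872). It was also lost with total counts only as the scaling (0.25, adjusted p = 0.0670), with no filter (0.33, adjusted p = 0.0832) and with only the samples compared (0.32, adjusted p = 0.144). The *AGO1* knockout samples, at 143, 152 and 164 CPM, lay below the wild-type samples, with a log2 change of -0.28 that was not called (adjusted p = 0.0781), and that was called with total counts only (-0.37, adjusted p = 0.0137) and with DESeq2 (-0.27, adjusted p = 0.0224). The interaction was 0.58 (SE 0.13, adjusted p = 0.00634), so the double knockout line lay above the sum of the single knockout lines.

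Wild-type replicate 2 was the highest of the 3 wild-type samples for *ZEB1*, *SNAI2*, *QKI*, *ESRP1* and *RBFOX2* and the lowest for *ZEB2*, *SNAI1*, *TWIST1* and *ESRP2*. It was also highest for *CDH1*, at 134 CPM beside 84.5 and 74.6 CPM, and lowest for *VIM*. The calls of *ZEB1*, *SNAI1*, *SNAI2*, *QKI*, *ESRP1* and *RBFOX2* in *AGO1/2/3* knockout cells were kept when any 1 of the 15 libraries was left out.

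The known partners of these regulators were followed next. *MIR200CHG*, the host transcript of miR-200c and miR-141 on chromosome 12, had 69, 61 and 68 counts in wild-type samples and 71, 51 and 43 counts in *AGO1/2* knockout samples. In *AGO1/2/3* knockout samples it had 5, 3 and 2 counts. The ratio of the summed counts of wild-type to *AGO1/2/3* knockout cells, 198 against 10 and scaled for library size, had an exact 95% interval of 10.6 to 42.3 (counting error only, adjusted p of the fit 1.15e-08). It was not called in the *AGO1*, *AGO2* or *AGO1/2* knockout line, with log2 changes of 0.43, 0.36 and -0.13. *ZEB1* was thus higher in *AGO1/2* knockout cells at a level of *MIR200CHG* not called different from wild type, and higher still in the line with little *MIR200CHG*. Any link between these RNAs was not tested. The hairpins *MIR200C*, *MIR141*, *MIR200A*, *MIR200B* and *MIR429* had 0 to 8 counts each and were not tested. *MIR205HG* was tested and was called in no line.

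Of the 15 epithelial genes known as targets of ZEB and SNAI repression, 10 fell and 1 rose in *AGO1/2/3* knockout cells, with a median log2 change of -1.39, beside -0.01 over all genes tested, of which 19.8% fell and 20.3% rose. In *AGO1/2* knockout cells 8 fell and none rose, beside 8.35% and 8.37% of all genes. In *AGO1* knockout cells 6 fell and none rose, beside 5.50% and 3.17%, and in *AGO2* knockout cells 1 fell and 2 rose, beside 10.8% and 8.55%. This list, like the other gene lists, was chosen with earlier results of these data known. The counts of each list are thus not independent of that choice. *MAL2*, a membrane traffic protein of the apical surface, fell from 189 ± 23.4 CPM in wild-type to 0.399 ± 0.100 CPM in *AGO1/2/3* knockout cells (SD, n = 3), that is, -8.84 as a log2 change. *RAB25*, a small GTPase of apical recycling, fell by 6.36 on the log2 scale in *AGO1/2/3* but by 0.84 in *AGO1/2* knockout cells. *CDH1* had 97.7 ± 31.9 CPM in wild-type and 8.57 ± 0.739 CPM in *AGO1/2/3* knockout cells, a log2 change of -3.51 (SE 0.26, adjusted p = 7.51e-08). *CDH1* also fell by 1.15 in the *AGO1* knockout line and by 1.66 in the double knockout line, both called. The samples of these knockout lines overlapped with each other and lay below all wild-type samples. For *AGO2* knockout cells -0.55 was not called (adjusted p = 0.106). *DSP*, which encodes desmoplakin, was the gene that rose, with a log2 change of 0.27.

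Of the 12 mesenchymal genes, 11 were tested and 6 of them rose and none fell in *AGO1/2/3* knockout cells, with a median of 0.82, where 20.3% of all genes rose and 19.8% fell. *SPARC*, a matrix glycoprotein, had a log2 change of 4.94, *VIM*, the intermediate filament vimentin, one of 3.64 and *FN1*, fibronectin, one of 2.59. *VIM* rose to 24.0 ± 2.17 CPM in *AGO1/2* and to 52.2 ± 11.4 CPM in *AGO1/2/3* knockout cells, from 4.18 ± 0.904 CPM in wild-type cells (SD, n = 3). Over the list, 3 genes rose and 1 fell in *AGO1/2* knockout cells with a median of 0.12, beside 8.37% and 8.35% of all genes. For the *AGO1* knockout line 2 rose and 2 fell with a median of -0.14, beside 3.17% and 5.50%. In *AGO2* knockout cells the list went the other way from *AGO1/2/3* knockout cells. There 6 members were lower and none higher, beside 10.8% and 8.55% of all genes, with a median of -0.76. Among the 6 were *VIM* at -0.76 and *SPARC* at -3.08.

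**Figure D3:**
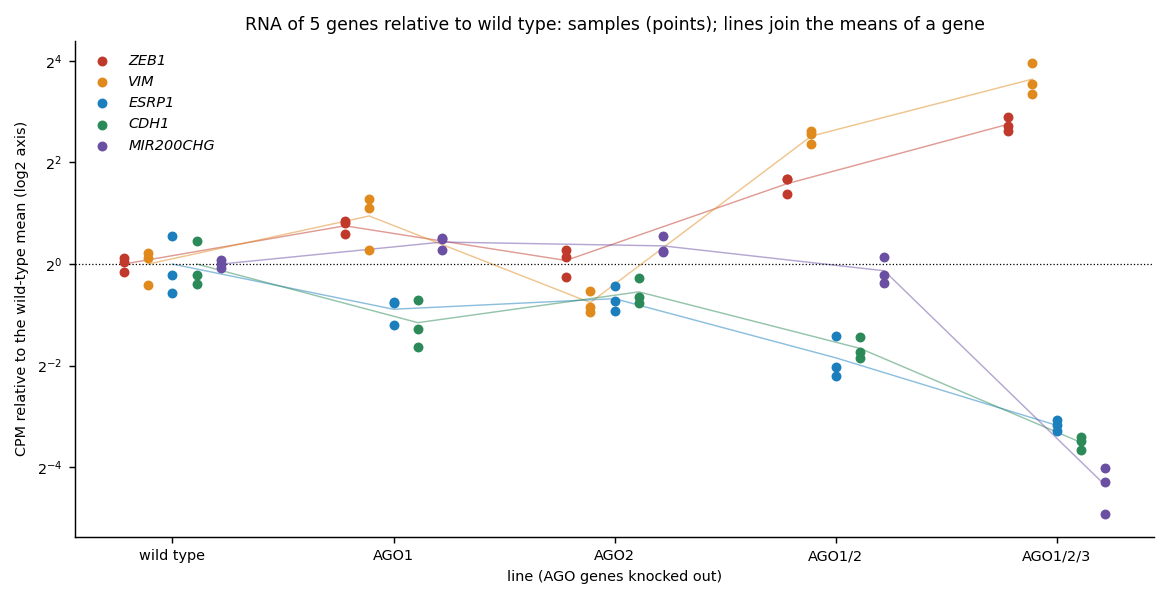
CPM of *ZEB1*, *VIM*, *ESRP1*, *CDH1* and *MIR200CHG* in each of the 15 samples relative to the gene's wild-type mean (log2 axis), with thin lines joining the line means of a gene. *ZEB1* and *VIM* lie above and *ESRP1* and *CDH1* below wild type in *AGO1/2* and further so in *AGO1/2/3* knockout samples, and *MIR200CHG* lies low in the *AGO1/2/3* knockout samples.

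The 11 transcription factors that hold the epithelial state had 7 members lower and 1 higher in *AGO1/2/3* and 8 lower and 1 higher in *AGO1/2* knockout cells, with medians of -0.74 and -1.02. Of all genes 19.8% were lower and 20.3% higher in the first comparison and 8.35% and 8.37% in the second. *GRHL2*, a grainyhead factor of epithelial enhancers, went from 31.8 ± 4.65 CPM in wild-type to 2.02 ± 0.175 CPM in *AGO1/2* and 1.12 ± 0.102 CPM in *AGO1/2/3* knockout cells (SD, n = 3), with log2 changes of -3.98 and -4.82. *GRHL3* and *ELF3* had log2 changes of -3.66 and -3.21 in *AGO1/2/3* knockout cells. *OVOL2*, a zinc finger repressor of *ZEB1*, was the member that rose in that line, by 1.83 on the log2 scale. Of 14 further transcription regulators tied to EMT, 11 were tested. The list holds *ID1*, *ID2* and *ID3*, and not all its genes drive EMT. Of those tested, 5 rose and 1 fell in *AGO1/2/3* knockout cells with a median of 0.30, beside 20.3% and 19.8% of all genes. The largest rises were those of *SOX9* (1.03), *TGIF1* (0.91) and *SOX4* (0.82), and *SNAI3* fell by 1.03. *SOX4* fell in *AGO1/2* knockout cells by 2.49 and so turned direction between these lines.

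Of 15 corepressors and stability factors of ZEB and SNAI proteins, 14 were tested, and 6 rose and none fell in *AGO1/2/3* knockout cells, with a median of 0.20, beside 20.3% of all genes up and 19.8% down. *LATS2*, *BTRC* and *GSK3B*, kinases or ligase subunits that act on SNAI or related proteins, had log2 changes of 1.27, 0.89 and 0.74. Of 16 other RNA-binding proteins with roles in EMT splicing, 4 rose and 1 fell, with a median of 0.19, and the share that rose was near the 20.3% of all genes, of which 19.8% fell. *RBM24*, a muscle-enriched splicing factor, rose from 5.85 ± 2.07 CPM in wild-type to 18.5 ± 0.290 CPM in *AGO1/2* and 59.0 ± 5.31 CPM in *AGO1/2/3* knockout cells (SD, n = 3), and *MBNL3* and *CELF1* rose by 1.17 and 0.50 on the log2 scale. Of 12 genes whose exons ESRP, RBFOX2 or QKI proteins switch, 4 rose and 5 fell in total RNA in *AGO1/2/3* knockout cells, with a median of 0.11, where 20.3% of all genes rose and 19.8% fell. *SLK* had the largest rise, at 0.66, and *CD44* the largest fall, at -0.78. Counts per gene do not show which exons were used.

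E-boxes of the form CAGGTG, or CACCTG on the other strand, were searched in the RefSeq promoter windows of GRCh38.p14, which run from 250 bases before to 50 bases after a gene start. Of 35116 windows, 20.6% held the motif. Of the 11 windows of the epithelial target list that the table holds, from 9 genes, 8 held it. *CDH1* and, of the members, *SNAI1*, *SNAI2*, *TWIST1*, *QKI*, *ESRP1*, *ESRP2* and *RBFOX2* were not searched here. These genes were listed as targets of E-box repressors, so this share is not independent of the choice. *CLDN7* and *CRB3* held 5 matches each and *CLDN4* and *MARVELD2* none. *MIR200CHG* held 1 match. Of the 9 windows of *VIM* and the other mesenchymal genes in the table, 1 held it. The *ZEB1* windows held 4 matches and those of *ZEB2* and *PRRX1* none. The sequence around 1 match each is shown with the motif in capitals for *MIR200CHG* and *RAB25*, whose fall lay mainly between the double and triple knockout lines, and for *CLDN7* and *CRB3*, which held the most matches.
MIR200CHG, chr12:6963155-6963184, plus strand: ggcaggaggacaCACCTGtgcgcagggtgg
RAB25, chr1:156061107-156061136, plus strand: catctctccaccCACCTGggccccaggtct
CLDN7, chr17:7262456-7262485, minus strand: cctgtccgcccgCACCTGctggctcacctc
CRB3, chr19:6464199-6464228, plus strand: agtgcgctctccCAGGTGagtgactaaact

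The neighbourhood of each member was described by the genes within 5 Mb of its start with a mean of at least 1 CPM. *ESRP1* lies in a stretch of chromosome 8 whose genes were lower as a group in 2 lines. Of its 46 neighbours, 29 fell and 1 rose in *AGO1/2* knockout cells, with a median log2 change of -0.52. In this comparison 8.35% of all genes tested fell and 8.37% rose. In *AGO1/2/3* knockout cells 26 fell and 4 rose, with a median of -0.42, beside 19.8% and 20.3% of all genes tested. The shares over all genes include genes under 1 CPM, which the neighbours leave out. In *AGO1* and *AGO2* knockout cells the medians were 0.14 and 0.15. None of the 46 lay below *ESRP1* in the double or the triple knockout line. Within 10 Mb the medians in these lines were -0.54 and -0.42, and 1 of 90 neighbours, *GRHL2*, lay below it. The fall of *ESRP1* was thus larger than the shift of the region, whose part in it was not tested. *LINC02894*, an RNA read from the opposite strand whose start lies 1607 bases from that of *ESRP1*, had log2 changes of -0.77 and -2.53 in the double and triple knockout lines (adjusted p = 0.0128 and 6e-07), and was named here after its values were seen.

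**Figure D4:**
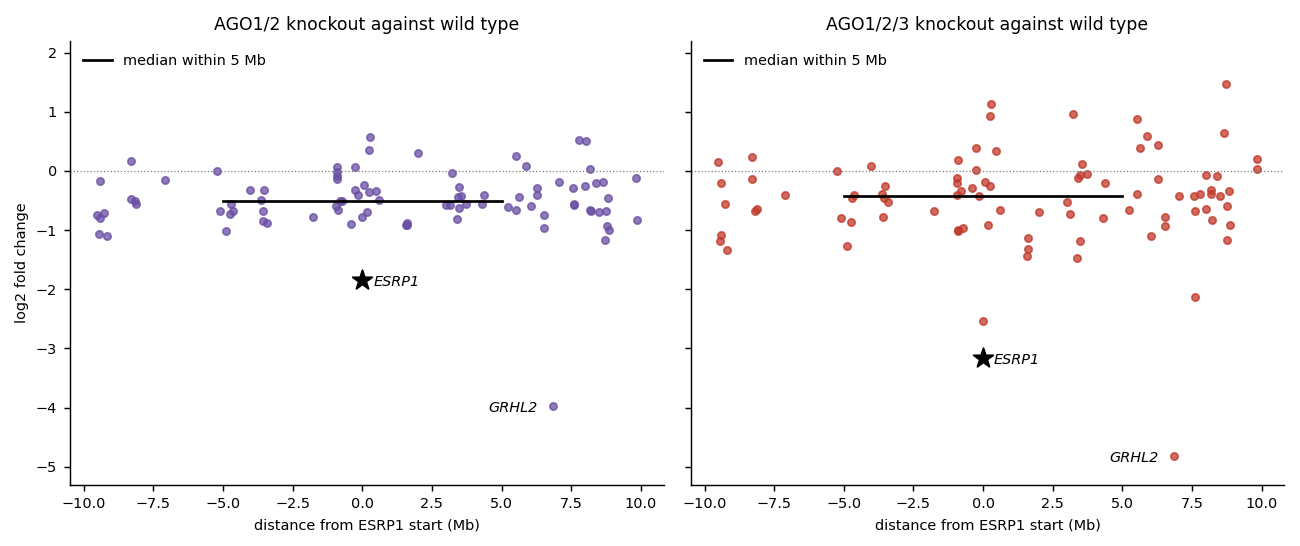
Log2 change in *AGO1/2* knockout cells (left) and *AGO1/2/3* knockout cells (right) of genes with at least 1 CPM, by the distance of their start from that of *ESRP1* in Mb. The star is *ESRP1*, and the black bar is the median within 5 Mb, at -0.52 and -0.42. Most points lie below 0 in both panels and *ESRP1* lies below all within 5 Mb.

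Around the other called members the medians within 5 Mb in *AGO1/2/3* knockout cells were 0.26 for *ZEB1* (35 genes), -0.07 for *SNAI1* (65 genes), 0.10 for *SNAI2* (9 genes), 0.08 for *QKI* (27 genes) and -0.03 for *RBFOX2* (113 genes). Around *ZEB1*, 17 of the 35 genes rose and 3 fell, beside 20.3% and 19.8% of all genes tested, and all 35 lay below *ZEB1*. *MAL2* also lies on chromosome 8.

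Of 22 reported miR-200 targets outside the members, 12 rose and 5 fell in *AGO1/2/3* knockout cells, with a median of 0.53, beside 20.3% and 19.8% of all genes, so that the share that fell was near the background. In *AGO1/2* knockout cells 8 rose and 3 fell, beside 8.37% and 8.35%. The largest rises were those of *MAML2* (2.46), *CFL2* (1.39) and *MSN* (1.27). *RND3*, with 2 seed matches, and *ERRFI1*, with 4, had log2 changes of -4.11 and -2.56. *MAML2* held none of the 7-base matches in its canonical 3′-UTR. Over all genes, those with 3 or more matches (669 genes) had a median log2 change of 0.211 in *AGO1/2/3* knockout cells and 42.3% were higher, while those with 0 matches (10029 genes) had a median of -0.016 and 22.3% were higher. With at least 2 matches (1790 genes) the median was 0.204. Among all 14757 tested genes with a 3′-UTR, 26.7% were higher in this line. Genes with many matches also had longer 3′-UTRs, with a median of 5447 bases beside 824 bases. Tested genes were also split into 3 classes by 3′-UTR length. The medians in the longest class were 0.211 for 629 genes with 3 or more matches and 0.108 for 1844 genes with 0 matches. The gap was thus smaller among long 3′-UTRs. Length was still not matched in that class, with median 3′-UTRs of 5707 and 3087 bases. In the middle class the medians were 0.207 (40 genes) and 0.054 (3573 genes). In *AGO1*, *AGO2* and *AGO1/2* knockout cells the medians of genes with 3 or more matches were -0.025, 0.063 and 0.028. *ZEB1*, at 2.75, lay far above the median of its class, *QKI* at 0.77 less so, and *ZEB2* at 0.42 was not called.

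**Figure D5:**
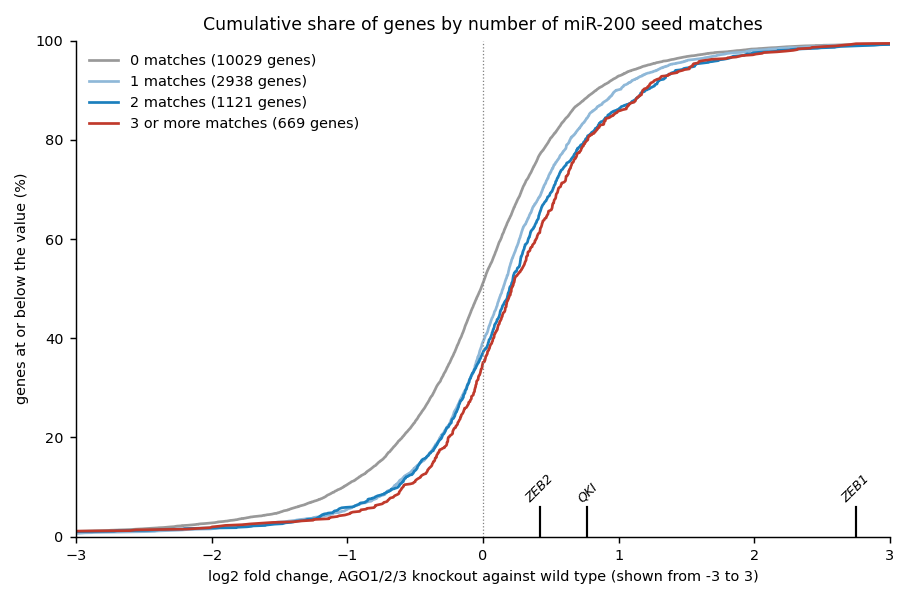
Cumulative share of genes (%) by log2 change in *AGO1/2/3* knockout cells for genes with 0, 1, 2 and 3 or more matches to the miR-200 seeds in the 3′-UTR (10029, 2938, 1121 and 669 genes). Ticks mark *ZEB2* (0.42), *QKI* (0.77) and *ZEB1* (2.75). The curves of genes with matches lie to the right of the curve of genes without.

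The genes outside the members whose log2 CPM followed a member most closely over the 15 samples were found for the 3 members with the widest range of line means. For *ESRP1* they were *CLDN7* (Pearson r = 0.984), *CDH1* (0.976) and *IQANK1* (0.972). *CLDN7* encodes a claudin of tight junctions. For *ZEB1* they were *CCDC88A* (0.977), *MTMR10* (0.975) and *ATP11B* (0.973). For *SNAI2* they were *ARID1A* (0.944), *SNTB1* (0.930) and *EXT1* (0.930). *IQANK1*, *SNTB1* and *EXT1* lie on chromosome 8, as do *ESRP1* and *SNAI2*. These values describe samples that fall into 5 lines and share their libraries.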

How the data were processed

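Per the labels and the methods of the study, RNA of 15 HCT116 samples was depleted of ribosomal RNA, made into stranded libraries and sequenced in pairs. The authors aligned the reads to hg38 with STAR and deposited expected counts per gene from Salmon, without normalization. The submitters' processing notes name STAR 2.5.3a and Salmon 0.11.0. The annotation release was not checked here. A quasi mode is named only in the headers for *AGO2* knockout samples, and its effect and that of genotype cannot be told apart. The 8 eCLIP samples were not analysed here. The members and gene lists were chosen with earlier results of these data known.

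Expected counts were rounded. A model of the 5 lines was fitted to all 15 samples with edgeR 4.0.16 (R 4.3.3; filterByExpr, TMM, quasi-likelihood test, Benjamini-Hochberg adjustment). DESeq2 1.42.0, the study's tool, was an alternative, beside other scalings and filters, only the samples compared, the replicate block, each sample left out and, chosen after seeing the data, leaving out the *AGO2* knockout line. The fit was tested on simulated counts. Named genes were the 10 members, *AGO1* to *AGO4*, *CDH1*, *VIM*, *MIR200CHG* and, per list, up to 3 largest rises and 3 largest falls called in *AGO1/2/3* knockout cells, and the 3 genes most correlated with each of the 3 members of widest range. Others were named after their values were seen. P-values of the fit rest on the spread between replicates within lines, with 1 estimate per gene shared by the 5 lines. They do not measure the spread between separately made lines of the same genotype. Python 3.11.15 was used for the rest. Symbols and positions are from GENCODE v44.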

Additional observations from a re-analysis of the deposited data

Results flagged for a closer look

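For 3 of the 9 members tested, the difference between the *AGO1/2* knockout line and wild-type cells departed from the sum of the differences in the *AGO1* and *AGO2* knockout lines, by the interaction term of edgeR's quasi-likelihood fit with Benjamini-Hochberg adjustment. The interaction was 0.76 on the log2 scale for *ZEB1* (adjusted p = 0.0149), 2.87 for *TWIST1* (adjusted p = 0.000456) and 0.58 for *RBFOX2* (adjusted p = 0.00634). All 3 were positive, and 11.5% of all genes tested had a called positive interaction. Each genotype is 1 line, so the interaction and differences between lines cannot be told apart. The interaction also takes in the *AGO2* knockout line, the only one whose headers name a quasi mode. The part of that mode in these values was not tested.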

How the results depend on the processing

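No member's log2 fold change changed sign where it was called. Of 1211 member values under the alternatives, 1155 stayed on their side of the threshold, 31 lost a call and 25 gained one. In *AGO2* knockout cells 1 member was called. With total counts only or with no filter on low counts 3 were called, with DESeq2 or with only the samples compared 2, and with at least 10 counts in every sample 0. Leaving out 1 library gave 1 to 2. In *AGO1/2* knockout cells 4 were called, 2 with only the samples compared, and 2 to 4 with 1 library left out. Over all genes, the *AGO1*, *AGO2* and *AGO1/2* knockout lines had 1982, 4408 and 3820 calls, and with only the samples compared 658, 1868 and 2116. With 1 library left out the *AGO1* count was 964 to 1984 and the *AGO2* count 1529 to 5190. With total counts only, 20.5%, 16.9%, 34.9% and 36.7% of the called genes were higher in the 4 lines in order, beside 36.6%, 44.3%, 50.1% and 50.7%, and the median of all genes moved to -0.10, -0.14, -0.08 and -0.15. *ESRP1* in *AGO1* knockout cells was not called with only the samples compared (adjusted p = 0.149, edgeR). Samples with the same replicate number did not deviate together (mean correlation -0.00669), and the numbers were not taken as pairs. With a replicate block the count of members called stayed at 6 in *AGO1/2/3*, 4 in *AGO1/2* and 1 in *AGO2* knockout cells and was 2 in *AGO1* knockout cells, where the call of *ESRP1* was lost (-0.88, adjusted p = 0.0683, edgeR). Within 5 Mb the medians of the neighbours of *ZEB2*, *SNAI1* and *TWIST1* in the triple knockout line were -0.04, -0.07 and -0.13. With a window of 10 Mb they changed sign, to 0.08, 0.01 and 0.13, and that of *ESRP1* stayed at -0.42. At this depth *PRRX1* could not be tested and *SNAI2* rested on few counts.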
